A study of Mus musculus with 12 samples.

Results

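D8 and D3 are the latest and the earliest of 4 cell divisions that were sorted from mouse CD4 T cells in 1 immune response, and they were compared on 6 of the 12 arrays of the series, 3 of each division. The arrays were taken by their titles, D3-1 to D3-3 and D8-1 to D8-3, and paired by the number in the title, which the labels give as the number of an independent experiment. In every group, naive CD4 T cells carrying the DO11.10 transgenic T cell receptor, which recognises a peptide of ovalbumin (OVA), had been stained with the dye CFSE and transferred into Balb/c hosts that were then given the OVA peptide in complete Freund's adjuvant (CFA). Lymph node cells were taken 66 to 72 h later and sorted by dye dilution. The labels describe D3 as effectors that had divided 2 times and D8 as effectors that had divided 7 times, so the division names run 1 ahead of the number of divisions completed. All groups were therefore of the same strain, immunization and harvest time, and they differed in the dye gate. The labels name no gate on the transferred receptor, the hosts kept their own undyed lymphocytes, and D8 was the dimmest of the 4 gates. No age or sex of the animals, and no number of animals behind an array, is given in the sources used here.

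CFSE binds cell proteins and is shared out between daughter cells at each division, so that its brightness counts the divisions a cell has gone through. CD4 T cells that meet antigen on dendritic cells leave quiescence, switch to a proliferative metabolism, divide rapidly and, while dividing, take on effector programmes such as Th1 (interferon gamma, CXCR3), Th2 (IL-4) or follicular helper (CXCR5, IL-21). Cells at an early and a late division of the same response can differ in how long ago they started, how often they met antigen and how far they have differentiated. The start of division and the contacts with antigen were not measured here. The comparison of D8 with D3 spans the widest range of divisions in the series and asks what separates the ends of that range.

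RNA was hybridized to Illumina bead arrays, on which each value is the brightness of 1 probe. The 6 arrays had between 15563 and 16476 probes detected (detection p under 0.05) and median intensities of 41.6 to 51.2, the lowest on D8-3. Levels below are log2 of the background-corrected and normalized intensity, and differences are D8 minus D3 on that log2 scale, so that 1 unit is a 2-fold change. Each has its standard error and a limma p adjusted over all 16406 probes tested, and 3 arrays per group limit the precision of all of them. A gene is represented by its brightest probe, and 8919 genes were tested.

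D8 and D3 differed in a large part of the measured transcriptome. Of 8919 genes, 3839 (43.0%) were called at an adjusted p under 0.05, 1855 (20.8%) higher and 1984 (22.2%) lower in D8. Over probes the count was 6833 of 16406 (41.6%), 3229 (19.7%) higher and 3604 (22.0%) lower, and with median centring in place of quantile normalization, a scaling that moves the median difference of all probes to -0.075, it was 2507 higher and 4295 lower. Most of the calls were modest in size, and 730 genes (8.18%) were called and differed by over 2-fold: 406 genes (4.55%) were higher and 324 (3.63%) lower, and 94 (1.05%) and 45 (0.505%) by over 4-fold. The 3 D8 arrays did not overlap with the 3 D3 arrays in 4368 genes (49.0%), and all 3 experiments moved the same way in 6036 (67.7%). The within-experiment differences of the 8919 genes correlated at 0.889, 0.881 and 0.863 between pairs of experiments, which is a correlation across genes and not across samples. Experiment 3 had somewhat smaller differences, with a median of 0.55 over the genes called higher against 0.61 in each of the other two, and -0.50 over the genes called lower against -0.62 and -0.63.

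The largest rises among genes detected on all 6 arrays were those of Emp1, Zbtb32 and Cxcr3. Emp1, a tetraspan membrane protein, had levels of 5.70, 5.65 and 5.62 in D3 and 10.14, 9.85 and 9.74 in D8. This was a rise of 4.25 ± 0.11 (adjusted p 2.26e-06), with the groups far apart and almost no spread within D3. Zbtb32, a zinc finger repressor of cytokine and proliferation genes in lymphocytes, stood at 5.43, 5.00 and 5.08 in D3 and at 9.67, 9.36 and 9.17 in D8 (4.23 ± 0.10, adjusted p 2.26e-06). Cxcr3, the chemokine receptor that takes Th1 cells to inflamed tissue, had 5.01, 5.43 and 5.68 in D3 and 9.57, 9.97 and 8.78 in D8 (4.07 ± 0.26, adjusted p 2.78e-05). Its rise was smaller in experiment 3 than in the other two, and the groups did not overlap. Anxa2, a calcium-dependent membrane-binding annexin, rose by 3.70 ± 0.14, from 7.54, 7.95 and 7.04 to 11.51, 11.27 and 10.86, while its other tested probe, which is much dimmer, gave 0.68. Ifitm3, an interferon-induced restriction factor of viral entry, rose by 3.22 ± 0.18, and Plac8 by 3.40 ± 0.38. Plac8 was the least even of these genes, at 8.38, 10.38 and 8.26 in D8 against 5.26, 5.62 and 5.95 in D3, yet every D8 array lay above every D3 array. The rest of the 15 largest rises were Rnase4 (a ribonuclease, 3.17), Tubb2b (a beta tubulin, 3.13, with 0.37 to 2.01 on its 4 other probes and 1.48 with the mean of probes), Cdkn3 (a phosphatase acting on cyclin-dependent kinases, 2.97), Tspoap1 (2.95), Depdc1b (2.86), Pif1 (a DNA helicase, 2.83), Cemip2 (2.79), Sapcd2 (2.78) and Birc5 (survivin, 2.75), all with an adjusted p of at most 1.86e-05.

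**Figure D1:**
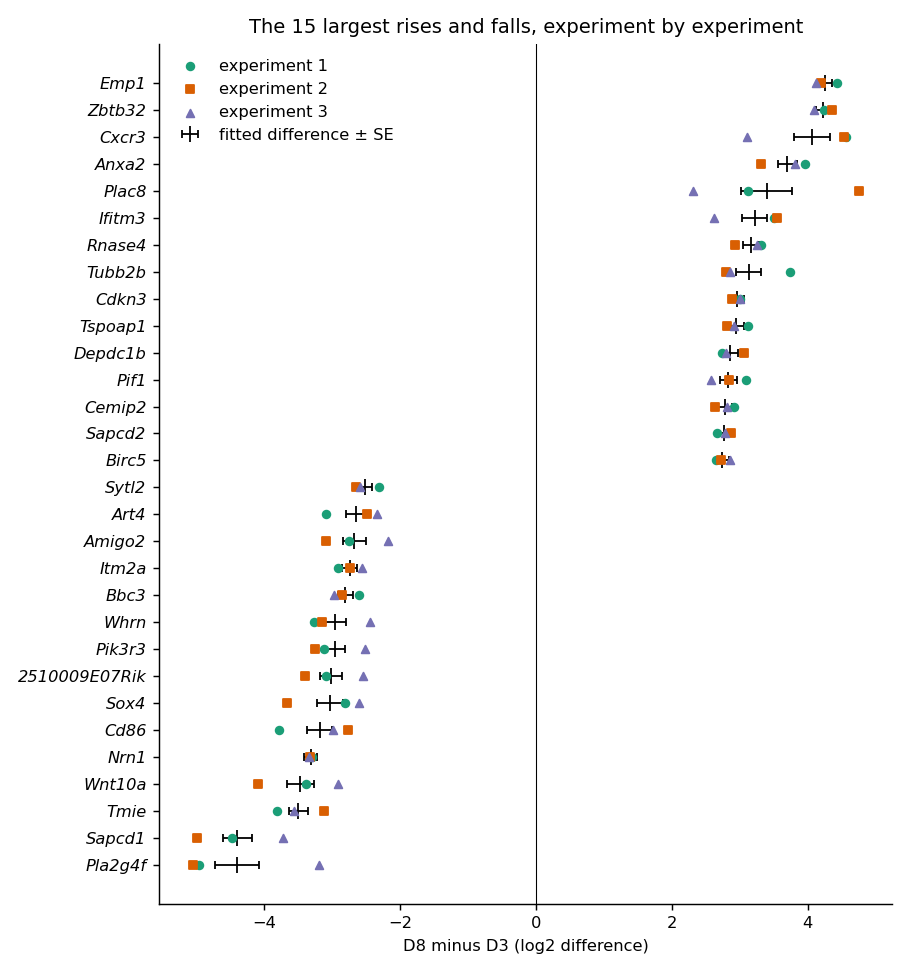
D8 minus D3 (x axis, log2 difference) for the 15 genes with the largest rise and the 15 with the largest fall that were detected on all 6 arrays. Coloured symbols are the 3 experiments and the black bar is the fitted difference with its standard error. All 90 points lie on the side of their gene's fitted difference, and Plac8, Pla2g4f and Cxcr3 spread most.

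The largest falls came from very different genes. Sapcd1 had levels of 10.57, 10.81 and 10.73 in D3 and 6.10, 5.82 and 7.01 in D8, a fall of 4.40 ± 0.21 (adjusted p 9.87e-06). Pla2g4f, a cytosolic phospholipase A2, went from 10.67, 10.77 and 10.57 to 5.72, 5.72 and 7.37, a fall of 4.40 ± 0.32 (adjusted p 4.7e-05). In both genes the D3 arrays lay close together and D8-3 was the highest of the D8 arrays, without reaching D3. Cd86, a costimulatory ligand best known on antigen-presenting cells, stood at 9.92, 9.58 and 9.86 in D3 and at 6.13, 6.81 and 6.87 in D8 (-3.18 ± 0.18, adjusted p 1.86e-05), and its other tested probes gave -2.55 and -2.98. Nrn1, neuritin, was the most even of them, at 8.93, 8.82 and 8.92 in D3 and at 5.64, 5.50 and 5.59 in D8 (-3.32 ± 0.10). The Wnt ligand gene Wnt10a (-3.47), Tmie (-3.50), the HMG-box transcription factor Sox4 (-3.03), 2510009E07Rik (-3.01), the PI3 kinase regulatory subunit Pik3r3 (-2.96), the scaffold gene Whrn (-2.95), Bbc3 (-2.81), Itm2a (-2.74), the adhesion molecule gene Amigo2 (-2.67), Art4 (-2.64) and the vesicle transport gene Sytl2 (-2.52) complete the 15, with an adjusted p of at most 4.7e-05 over all of them.

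Some genes crossed the detection limit. In all, 99 genes called higher were detected on 0 of 3 arrays in D3 and on 3 of 3 in D8, and 104 called lower were detected on 0 of 3 in D8 and on 3 of 3 in D3. For these the fold is a least fold: the mean of the bright group against, on each array of the dim group, the higher of the dimmest detected probe's level and the probe's own level. S100a6, a calcium-binding S100 protein, was at least 12.5-fold higher in D8 (8.80, 8.52 and 7.71, adjusted p 1.05e-05). Chil5, a chitinase-like protein, was at least 10.3-fold higher, Popdc2 at least 7.62-fold, the helper cytokine gene Il21 at least 6.83-fold, the class I myosin gene Myo1f at least 5.94-fold and the Th2 cytokine gene Il4 at least 5.82-fold. In the other direction Arhgap20 was at least 8.40-fold lower in D8, with levels of 7.88, 8.16 and 7.40 in D3, and each of its other tested probes also fell. Sp6, a zinc finger transcription factor, was at least 6.20-fold lower, Igsf3 at least 5.47-fold (another probe gave -0.80), Sh3bgrl2 at least 4.23-fold, Ddc (aromatic amino acid decarboxylase) at least 3.72-fold and Fibcd1 at least 3.27-fold. Adjusted p was at most 5.88e-05 for these 12 genes. Log2 differences of dim probes shrink with a larger offset: with 50 in place of 16, that of Il4 was 1.82 instead of 2.99 and that of Il21 2.00 instead of 3.20.

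**Figure D2:**
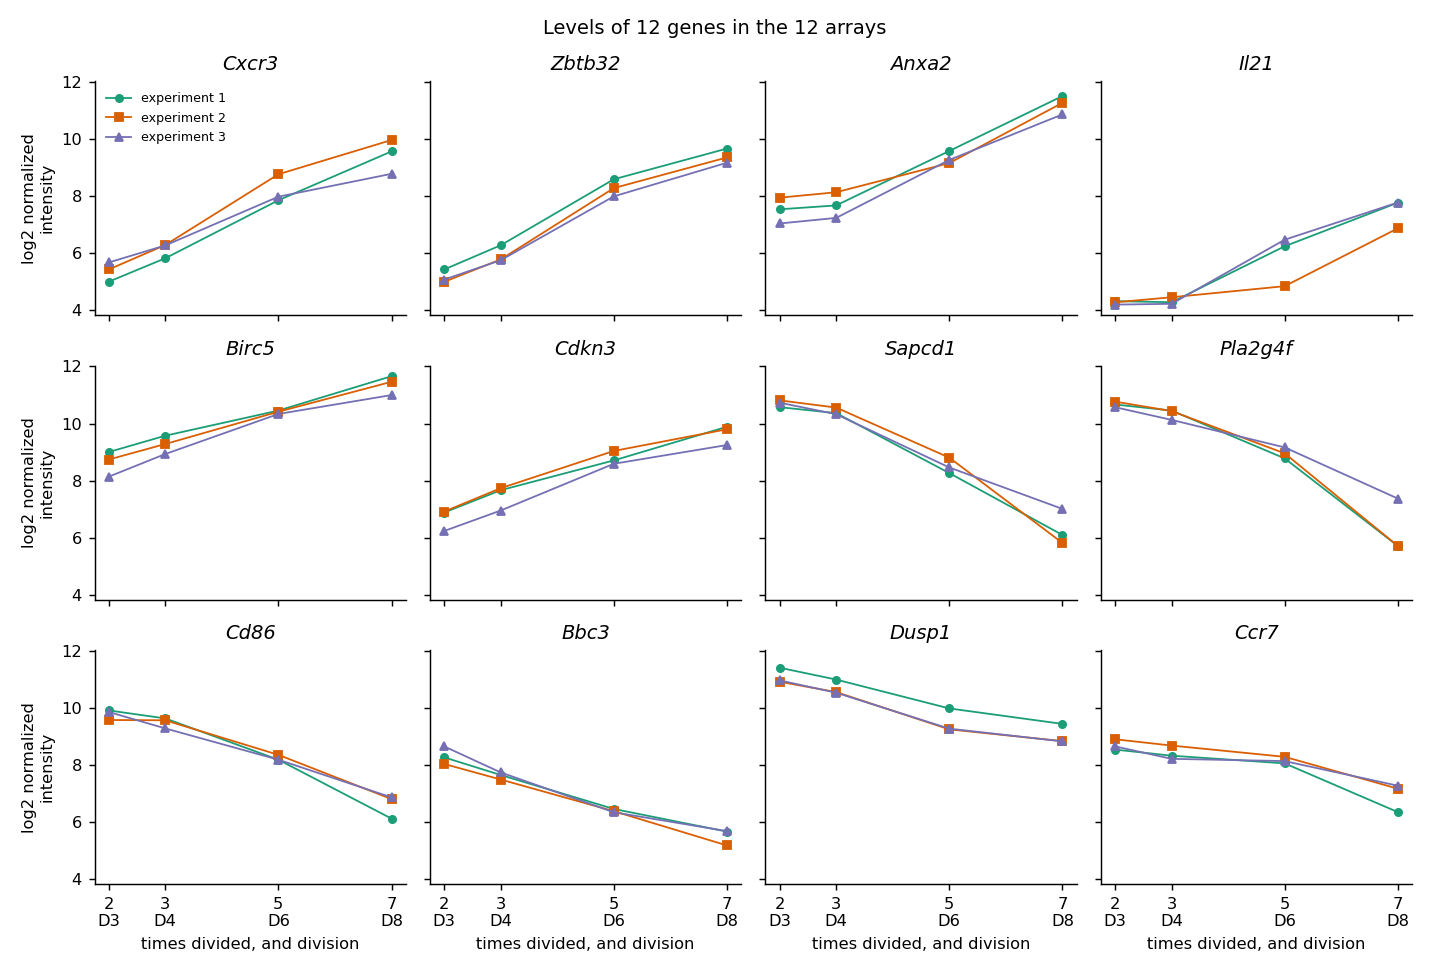
Levels (y axis, log2 normalized intensity) of 12 genes on all 12 arrays, by the number of times the cells had divided (x axis, with the division's name). Each line joins the 4 arrays of 1 experiment, and D3 and D8 are the ends of each line. The lines of Cxcr3, Zbtb32, Anxa2, Birc5 and Cdkn3 climb and those of Sapcd1, Pla2g4f, Cd86, Bbc3 and Dusp1 descend in all 3 experiments, with D8-3 the highest D8 array of Pla2g4f at 7.37.

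Genes of mitosis rose together. The mitosis and G2/M list (kinases, kinesins and kinetochore and spindle proteins used when a cell enters and completes mitosis) held 45 genes, of which 43 were on the array and 30 were tested. All 30 tested members were called higher in D8, against 20.8% of all genes, with a median difference of 2.27 against 0.00 over all genes. The 26 of them detected on all 6 arrays, whose entry into the test did not rest on D8 alone, were all higher. Plk1, the polo-like kinase that drives mitotic entry, had levels of 7.96, 7.47 and 7.29 in D3 and 10.56, 10.31 and 9.73 in D8 (2.63 ± 0.11, adjusted p 6.54e-06). Birc5, survivin, which with the Aurora B kinase forms the chromosomal passenger complex, went from a mean of 8.63 ± 0.44 (SD, n = 3) to 11.37 ± 0.34, with no overlap, and its other tested probes gave 3.33 and 3.12. Cdca8, borealin, another subunit of that complex, rose by 2.57 ± 0.11, from 8.55, 8.03 and 8.07 to 10.97, 10.75 and 10.65. Cdc25b, the phosphatase that switches on CDK1, rose by 3.03 ± 0.15, from 4.65, 4.79 and 4.56 (detected on 1 of 3 D3 arrays) to 8.04, 7.41 and 7.64. Cdk1, the mitotic kinase itself (2.29 ± 0.10), and Aurka, Aurora A kinase (2.43 ± 0.10), are added for the sequences below. The smallest differences in the list were those of Ect2 (0.70, not called with the authors' values) and Cenpf (0.82). No member of the list had overlapping groups, where 49.0% of all genes had groups that did not overlap.

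The promoters of this list were examined for the CHR (cell cycle genes homology region), letters TTTGAA, and the CCAAT box, 2 elements that are known to act together in many promoters of genes expressed in G2 and mitosis. Sequences were those of RefSeq, build GRCm38.p6, from 250 bases before to 50 bases after the annotated start, read on both strands, and 25 of the 30 genes had an entry. A CHR was present in 21 of these 25 windows (84%), against 888 of 7306 windows of tested genes (12.2%) and 18.1% of all 27025 windows in the table. A CCAAT box was present in 19 of 25 (76%), against 39.7% of tested genes, and both elements were present in 18 of 25 (72%), against 5.24%. The centre of the CHR lay within 50 bases of the annotated start in 19 of the 21 windows (90.5%), against 228 of 888 (25.7%) among tested genes. The 4 members without a CHR in the window were Cdc25b, Birc5, Nusap1 and Pttg1. The 4 windows below show the arrangement, 5′ to 3′ on the strand of the gene, with each CHR (TTTGAA or TTCAAA) and each CCAAT box (CCAAT or ATTGG) in capitals. In Cdca8 the CHR and a CCAAT box share 1 base.
Cdk1 (chr10:69352863-69353162, minus strand): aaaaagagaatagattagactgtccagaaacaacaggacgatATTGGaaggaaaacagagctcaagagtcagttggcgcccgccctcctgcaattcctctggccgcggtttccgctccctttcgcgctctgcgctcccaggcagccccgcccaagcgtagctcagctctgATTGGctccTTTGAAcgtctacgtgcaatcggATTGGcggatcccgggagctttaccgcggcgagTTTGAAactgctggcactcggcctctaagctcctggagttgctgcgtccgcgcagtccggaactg
Plk1 (chr7:122159185-122159484, plus strand): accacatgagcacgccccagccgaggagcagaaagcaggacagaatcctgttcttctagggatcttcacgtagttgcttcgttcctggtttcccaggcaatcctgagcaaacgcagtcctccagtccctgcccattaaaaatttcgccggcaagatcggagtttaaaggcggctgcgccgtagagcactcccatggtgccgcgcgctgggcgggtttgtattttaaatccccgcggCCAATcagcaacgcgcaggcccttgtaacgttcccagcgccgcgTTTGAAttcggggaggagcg
Aurka (chr2:172370521-172370820, minus strand): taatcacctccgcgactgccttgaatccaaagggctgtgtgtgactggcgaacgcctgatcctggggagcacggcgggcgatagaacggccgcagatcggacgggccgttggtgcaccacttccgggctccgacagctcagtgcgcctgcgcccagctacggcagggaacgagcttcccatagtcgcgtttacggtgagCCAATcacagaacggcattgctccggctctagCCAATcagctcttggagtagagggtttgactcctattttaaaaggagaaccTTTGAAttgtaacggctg
Cdca8 (chr4:124936868-124937167, minus strand): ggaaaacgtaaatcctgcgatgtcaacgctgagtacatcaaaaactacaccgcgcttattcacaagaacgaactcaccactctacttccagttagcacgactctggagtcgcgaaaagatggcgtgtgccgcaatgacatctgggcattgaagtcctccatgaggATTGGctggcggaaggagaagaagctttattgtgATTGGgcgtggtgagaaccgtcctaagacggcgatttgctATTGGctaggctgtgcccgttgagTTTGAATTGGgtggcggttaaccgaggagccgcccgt

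A match is a description of letters and says nothing of what binds there. Across all genes called higher by over 4-fold, 36 of 79 windows held a CHR (45.6%), and 19 of the 59 outside the mitosis list did (32.2%), against 12.2% of tested genes. Of the genes called lower by over 4-fold, 3 of 36 windows did (8.33%). Since the list and the 4-fold group were both chosen by measures of this same comparison or with its results known, these shares are given without a test.

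**Figure D3:**
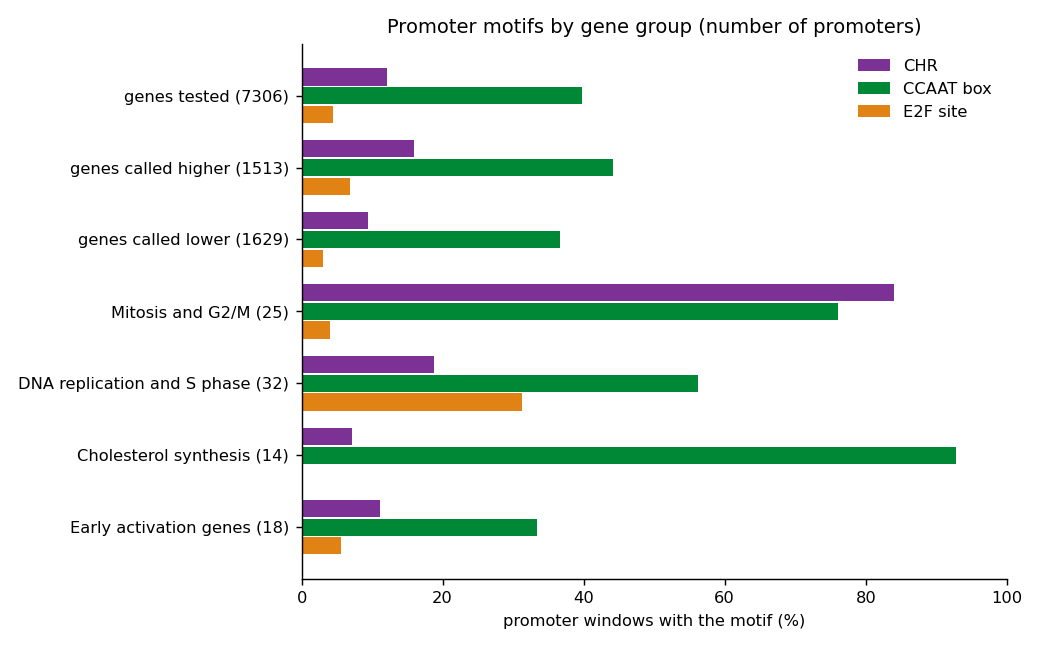
Share of promoter windows (x axis, percent, from 0) that hold a CHR, a CCAAT box or an E2F site in 7 groups of genes (y axis, number of windows in brackets). The CHR bar of the mitosis list reaches 84%, the CCAAT bar of the cholesterol list 92.9%, and the E2F bar is longest in the S phase list at 31.25%.

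DNA replication and S phase genes were higher in D8 in 37 of 39 tested members, against 20.8% of all genes. Their median of 1.00 was less than that of the mitosis list. Of 38 detected on all 6 arrays, 36 were higher. Rrm2, the regulated subunit of ribonucleotide reductase, which makes deoxynucleotides, had 6.66, 5.95 and 5.52 in D3 and 9.01, 8.67 and 8.16 in D8 (2.57 ± 0.11, adjusted p 6.67e-06). Tk1, thymidine kinase, rose by 2.06 ± 0.11, Cdc45 by 1.71 ± 0.11 and Mcm10 by 1.71 ± 0.15, the last 2 being parts of the replication fork machinery. The subunits of the MCM helicase rose by less, from 0.58 (Mcm4) to 1.05 (Mcm2 and Mcm3), and Gins4 (0.17) and Rpa2 (0.25, or 0.44 and called without experiment 3) were not called. E2F sites (letters TTTCCCGC, TTTGGCGC, TTTCGCGC or TTTGCCGC) were present in 10 of 32 windows of this list (31.25%), against 4.46% of tested genes. The window of Mcm3, 5′ to 3′ on its own strand with the sites or their reverse complements in capitals, holds a pair of them downstream of the start.
Mcm3 (chr1:20820263-20820562, minus strand): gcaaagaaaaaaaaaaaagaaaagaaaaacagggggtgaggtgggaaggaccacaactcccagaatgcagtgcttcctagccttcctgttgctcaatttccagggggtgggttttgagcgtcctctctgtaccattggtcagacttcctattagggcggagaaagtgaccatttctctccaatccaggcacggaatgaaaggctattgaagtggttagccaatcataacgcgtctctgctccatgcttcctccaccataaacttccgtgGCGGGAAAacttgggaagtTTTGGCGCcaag

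The regulators ahead of S phase changed in both directions. Calls in both directions were general, with 20.8% of all genes higher and 22.2% lower. Of 20 tested G1 cyclins, E2F and Rb family genes, 11 were higher and 3 lower (9 and 3 of the 18 detected on all 6 arrays). Ccne1, cyclin E1, which takes cells into S phase with CDK2, rose by 1.89 ± 0.10 (5.89, 5.40 and 5.00 in D3, 7.84, 7.23 and 6.90 in D8). The activator E2f2 rose by 1.51 ± 0.11, Ccne2 by 1.37 ± 0.13 and Cdk6 by 1.22 ± 0.15. Ccnd2, cyclin D2, which relays growth signals, fell by 1.24 ± 0.17, from a mean of 11.84 ± 0.10 (SD, n = 3) to 10.60 ± 0.39, and E2f5 and Tfdp2 fell by 0.77 and 0.72. Of 13 tested CDK inhibitors and genes of cell cycle exit, 6 were higher and 4 lower (4 and 4 of the 10 detected on all 6 arrays). Cdkn2c, p18INK4c, which blocks the kinases CDK4 and CDK6, rose by 2.57 ± 0.14, from 5.97, 6.08 and 5.81 to 8.72, 8.26 and 8.61. Cdkn2d, p19INK4d, rose by 1.43 ± 0.11, and Mxd3, a MAX dimerization protein, was detected on 0 of 3 D3 arrays and at least 3.94-fold higher in D8. The antiproliferative genes Mxd4 (-1.33 ± 0.11), Btg1 (-0.98 ± 0.13), Tob1 (-0.44 ± 0.10) and Ccng2 (-0.38 ± 0.10) fell. Of 20 DNA repair genes 14 were higher and 1 lower (median 0.64, and 12 and 1 of the 18 detected on all 6 arrays), with Clspn (claspin, 2.20 ± 0.14), Fancd2 (1.80 ± 0.10), Rad54l (1.72 ± 0.14) and Brip1 (1.57 ± 0.10) highest and Atm, the double-strand break kinase, lower by 0.29 ± 0.10. The smallest of these falls were not called without the replicate block, nor without experiment 1 (Atm -0.27, Tob1 -0.37), experiment 2 (Atm -0.32, Ccng2 -0.30) or experiment 3 (Atm -0.29, Ccng2 -0.40). The other probes of Atm gave 0.12 (not called) and -0.30, and the mean of probes, -0.16, was not called.

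**Figure D4:**
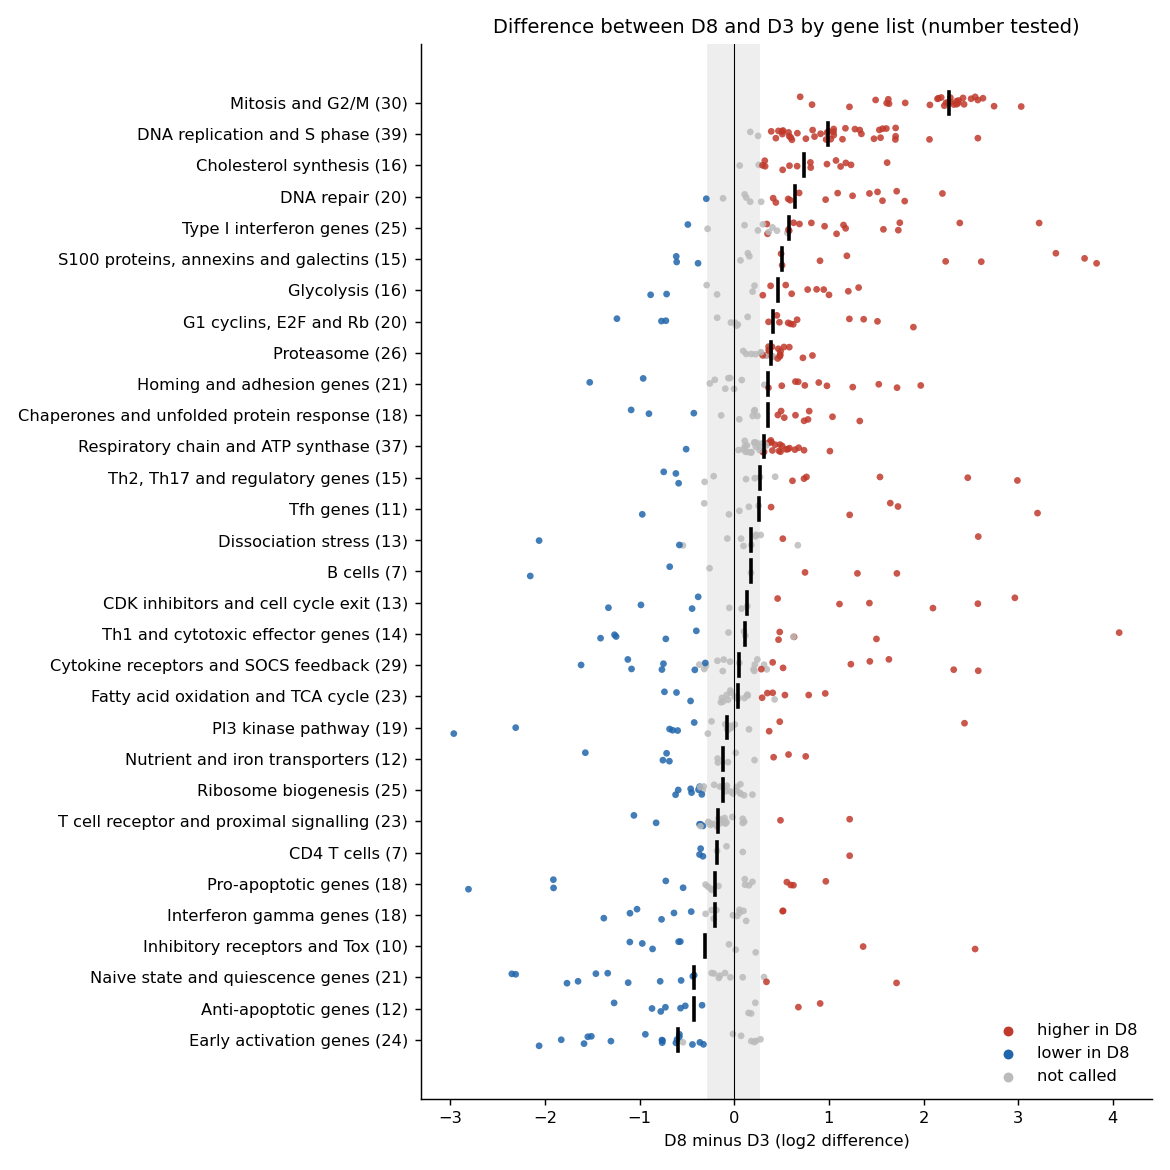
D8 minus D3 (x axis, log2 difference) of every tested member of the lists with 7 or more tested members (y axis, number tested in brackets). Red and blue points were called higher and lower, grey ones were not called, black bars are list medians and the grey band is the interquartile range of all genes. The mitosis list stands at a median of 2.27 and the early activation list at -0.59, and most other medians lie near the band.

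Metabolic genes moved less and, in most lists, upward. The 16 tested genes of cholesterol synthesis included 14 that were higher in D8, against 20.8% of all genes, and 0 that were lower. Their median was 0.74, and all 12 detected on the 6 arrays were higher. Mvk, mevalonate kinase, was detected on 0 of 3 D3 arrays and was at least 2.70-fold higher (6.23, 6.28 and 5.89 in D8). Fdps, farnesyl diphosphate synthase, rose by 1.23 ± 0.13, Mvd by 1.18 ± 0.10 and Cyp51, lanosterol demethylase, by 1.12 ± 0.10, from 7.55, 7.38 and 7.17 to 8.59, 8.47 and 8.41. A CCAAT box, which in several sterol genes lies beside the binding site of SREBP, the factor that senses sterols, was present in 13 of the 14 promoter windows (92.9%), against 39.7% of tested genes, and the sterol element TCACNCCAC was present in 0 of 14. The Mvk window holds 5 CCAAT boxes, shown 5′ to 3′ on its own strand with CCAAT or ATTGG in capitals.
Mvk (chr5:114444019-114444318, plus strand): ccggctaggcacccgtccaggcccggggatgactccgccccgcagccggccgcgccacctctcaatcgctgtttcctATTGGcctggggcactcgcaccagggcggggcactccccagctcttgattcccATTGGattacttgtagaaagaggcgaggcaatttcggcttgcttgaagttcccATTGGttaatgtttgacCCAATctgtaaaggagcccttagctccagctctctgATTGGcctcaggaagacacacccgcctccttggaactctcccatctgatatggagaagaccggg

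Of 16 glycolysis genes 10 were higher and 2 lower (median 0.46). Tpi1, triose phosphate isomerase, rose by 1.31 ± 0.12, from 10.61, 10.26 and 9.99 to 11.73, 11.48 and 11.59, Pgk1 by 1.21 ± 0.10, Aldoc by 1.00 ± 0.14 and Gapdh by 0.95 ± 0.10. The phosphofructokinase subunit Pfkm and the glucose transporter Slc2a3 fell by 0.88 ± 0.10 and 0.71 ± 0.11. Of 37 genes of the respiratory chain and ATP synthase 18 were higher and 1 lower, with a median of 0.32, and the brightest probe of the cytochrome c gene Cycs rose by 1.01 ± 0.11 (its other probes gave 0.12 and 0.30, neither called, and the mean of probes 0.47), while Uqcrh fell by 0.51 ± 0.11. Proteasome subunits were higher in 18 of 26 (median 0.39), from 0.30 to 0.83, with Psmc3 highest. That count was 11 without experiment 1 and 10 without experiment 2. Fatty acid oxidation and the TCA cycle had 6 of 23 higher and 3 lower (3 and 2 without experiment 2 or without the replicate block), with Idh3a at 0.96 ± 0.12 and Idh2 at -0.74 ± 0.12. These counts are near or below the shares over all genes, 20.8% higher and 22.2% lower. Ribosome biogenesis was the 1 metabolic or growth list with no member called higher. In it 0 of 25 were higher and 7 lower, with a median of -0.12, and the 7 are near the share of all genes called lower (22.2%). Wdr43 (-0.62 ± 0.11) and Npm1, nucleophosmin (-0.46 ± 0.10), were among the 7. The 7 became 3 without experiment 1, 4 without experiment 3, 4 with the authors' values and 4 with no detection filter. In the list of chaperones and the unfolded protein response, Sdf2l1 rose by 1.33 ± 0.11, the disulfide isomerase gene Pdia6 by 1.04 ± 0.10 and the transcription factor gene Xbp1 by 0.79 ± 0.10, and 3 members fell, Ddit3 by 1.09 ± 0.10, Dnajb9 by 0.90 ± 0.11 and Herpud1 by 0.43 ± 0.14 (not called with median centring, the authors' values, no detection filter or, at -0.22, without experiment 2), giving 9 higher and 3 lower of 18. Nutrient and iron transporters split 3 and 4 of 12, near the shares over all genes. The sodium pump subunit Atp1b1 was at -1.57 ± 0.10 and the iron transporter Slc11a2 at 0.76 ± 0.11.

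The effector and helper lists held strong rises of single genes beside members that fell. Of 14 tested Th1 and cytotoxic genes 5 were higher and 5 lower, where 20.8% of all genes were higher and 22.2% lower. These counts were 3 and 5 of the 12 detected on all 6 arrays, and 2 and 3 with the authors' values. Cxcr3 led the rises, and Ifng, the gene of interferon gamma, was at 4.70, 4.70 and 4.59 in D3 and 6.35, 6.60 and 5.55 in D8 (1.50 ± 0.17, adjusted p 0.000392), detected on 1 of 3 and 3 of 3 arrays. The other tested probe of Ifng gave 0.70 ± 0.24 and was not called (limma adjusted p 0.0504). Tbx21, the Th1 master regulator, was not called (0.12 ± 0.17, adjusted p 0.613), and its difference turned to -0.16 without experiment 2. Lta (lymphotoxin alpha, -1.41 ± 0.11), Id2 (-1.26 ± 0.13, with -0.58 and -0.22 on its other probes), Prf1 (perforin, -1.25 ± 0.20) and Fasl (-0.72 ± 0.10) fell. Of 11 follicular helper genes 5 were higher and 1 lower, 3 and 1 of the 8 detected on all 6 arrays, and 3 and 0 with the authors' values. Il21 was detected on no D3 array and stood at 7.77, 6.87 and 7.78 in D8. Cxcr5, which takes helper cells to B cell follicles, rose by 1.73 ± 0.16, from 8.82, 8.85 and 9.19 to 10.79, 10.83 and 10.43, and its other tested probes gave 1.69 and 1.85. Pou2af1 rose by 1.65 ± 0.13 and Icos, a costimulatory receptor, by 1.22 ± 0.20, while Bcl6, the follicular helper master regulator, was not called (0.16 ± 0.11, adjusted p 0.274) and Cd200 fell by 0.97 ± 0.18.

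Among Th2, Th17 and regulatory genes 6 of 15 were higher and 3 lower. Of the 12 detected on all 6 arrays 3 were higher and 3 lower, near the shares over all genes of 20.8% and 22.2%. Il4 had 4.29, 4.26 and 4.21 in D3, where it was not detected, and 7.53, 7.53 and 6.67 in D8. Il17f and Il10, also not detected in D3, were at least 4.21-fold and 2.16-fold higher, with wide spread in D8 (7.71, 5.64 and 6.98 for Il17f, and 6.11, 5.13 and 6.20 for Il10), and D8-2 was the lowest array of both. Foxp3, the regulatory T cell factor, fell by 0.74 ± 0.10, from 9.48, 9.66 and 9.71 to 8.88, 8.82 and 8.93, Ikzf2 by 0.62 ± 0.10 and Ctla4 by 0.59 ± 0.10. The other tested probes of Foxp3 gave -0.10 and -0.25, and neither was called. Gata3, the Th2 master regulator, had a difference of -0.31 ± 0.11 that did not pass (adjusted p 0.0561), but it was called lower in 5 of the 13 alternatives, from -0.29 to -0.37. With the authors' values in place of the normalization used here, Ifng (1.81), Il10 (1.32), Il17f (2.52), Icos (1.22), Prf1 (-1.28) and Cd200 (-0.97) were not called. In these bulk samples a change in the number of cells of a type cannot be told apart from a change of RNA per cell. Ifng, Il4, Il21, Il17f and Il10, cytokine genes of different helper lineages, were called higher in D8, but entered the test mainly through D8. Il4, Il21, Il17f and Il10 were detected on no D3 array, and Ifng was not detected on every D3 array. The cytokine genes Lta and Il2 fell, and members of these lists detected on all 6 arrays went both ways, as did genes outside the lists.

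The S100, annexin and galectin genes, many of them markers of effector and migrating cells, had 9 of 15 higher and 3 lower (6 and 3 of the 12 detected on all 6 arrays). For this list and the next, the shares over all genes were 20.8% higher and 22.2% lower, and the 3 lower are near that. Besides S100a6 and Anxa2, the galectin Lgals3 rose by 3.40 ± 0.21, from 4.55, 4.95 and 4.34 (detected on 1 of 3 arrays) to 8.50, 7.62 and 7.90, and Lgals1 by 2.61 ± 0.18, from 8.89, 9.45 and 8.84 to 11.99, 11.53 and 11.48. S100a11 rose by 2.23 ± 0.14, whereas Lgals8, Lgals4 and Anxa6 fell by 0.61, 0.61 and 0.38, the last with no call with median centring, the authors' values, no detection filter, without experiment 1 (-0.30) or experiment 2 (-0.39). Homing and adhesion genes were higher in 11 of 21 and lower in 2 (8 and 2 of the 15 detected on all 6 arrays). Cxcr4, the receptor of CXCL12, rose by 1.97 ± 0.25, from 5.84, 5.65 and 6.77 to 8.21, 8.11 and 7.84, and Gpr183, which guides T cells to the edge of the follicle, by 1.72 ± 0.16. Gcnt1, an enzyme that builds selectin ligands, rose by 1.53 ± 0.11 and Ly6c1 was at least 2.03-fold higher (0.81 on the log2 scale without experiment 2, against 1.25). Cxcr4 and Ly6c1 were not called with the authors' values. The chemokine receptor Ccr8 fell by 1.53 ± 0.11 and Cd44, an adhesion receptor, by 0.96 ± 0.11, with 3 of its other probes lower (-0.57, -1.31 and -0.91) and 1 dim probe at 0.14.

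Genes of recent T cell activation were lower in D8. Of 24 tested early activation genes 0 were higher and 17 lower, with a median of -0.59, against 20.8%, 22.2% and 0.00 over all genes. All 17 were among the 22 detected on all 6 arrays. Dusp1, a phosphatase of MAP kinases induced by their own signal, stood at 11.42, 10.92 and 10.97 in D3 and 9.45, 8.84 and 8.84 in D8 (-2.06 ± 0.10, adjusted p 1e-05). Cd69, the classical early activation antigen, fell by 1.83 ± 0.10, from 12.58, 12.55 and 12.83 to 10.76, 10.59 and 11.14, while its other probe gave -0.14 and was not called. Cd83 fell by 1.59 ± 0.10 and Dusp2, another MAP kinase phosphatase, by 1.55 ± 0.10. Il2 fell by 0.76 ± 0.16, from 8.40, 7.58 and 7.65 to 7.16, 6.95 and 7.26, and Myc by 0.36 ± 0.11 (adjusted p 0.027). Il2 and Myc were not called with the authors' values or with no detection filter, and Myc was not called with all 12 arrays in the fit, without the replicate block, without experiment 1 (-0.38) or without experiment 2 (-0.28). The immediate early genes Fos (-0.54 ± 0.22), Jun (0.07 ± 0.13), Junb (0.18 ± 0.12) and Fosb (0.23 ± 0.10) were not called, and D3-1 was by far the highest array of Fos, at 10.12 against 8.32 to 8.83 elsewhere. Fos was called lower in 4 alternatives, with all 12 arrays in the fit (-0.54), with no background correction (-0.52), with the offset of 50 (-0.51) and without experiment 2 (-0.82). Without experiment 2 Jun turned to -0.05. Of 13 genes of tissue dissociation stress, several of which are the same immediate early genes, 2 were higher and 2 lower, no more than the shares over all genes. The heat shock gene Hspa1a of that list was high on both arrays of experiment 2 (6.37 in D3 and 8.29 in D8, against 4.39 to 4.88 on the other 4). Without experiment 3 its difference was 1.07 and was called. The summed intensity of the stress list was 21217 to 26372 in D3 and 20190 to 22341 in D8, and its part in the early activation result was not tested.

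Naive state and quiescence genes were also mostly lower, 11 of 21 with 2 higher and a median of -0.42. Among all genes 22.2% were lower and 20.8% higher, with a median of 0.00. Tsc22d3, a glucocorticoid-induced leucine zipper protein, fell by 2.35 ± 0.11, from 9.98, 10.15 and 10.70 to 7.44, 7.88 and 8.48, Pik3ip1, which restrains PI3 kinase, by 2.31 ± 0.16, Ccr7, the receptor that holds naive cells in lymph nodes, by 1.77 ± 0.15, and Dapl1 by 1.65 ± 0.12. Klf2, a quiescence factor that induces lymph node exit, went the other way and rose by 1.72 ± 0.12, from 8.90, 8.63 and 9.04 to 10.65, 10.56 and 10.51. Il7r, the receptor of the survival cytokine IL-7, was not called (0.32 ± 0.25, adjusted p 0.346). Its levels overlapped (7.00, 6.71 and 8.03 in D3, 7.31, 7.81 and 7.56 in D8), and its difference was -0.078 without experiment 2 and 0.71, which passed, without experiment 3. Of 10 inhibitory receptor genes and Tox, 2 were higher, near the share over all genes, and 5 lower. Of the 8 detected on all 6 arrays 0 were higher and 5 lower. Tigit rose by 2.55 ± 0.23, from 4.60, 4.43 and 4.77 (detected on 1 of 3 arrays) to 7.85, 6.98 and 6.61, and Havcr2 was at least 1.92-fold higher, while Tox fell by 1.10 ± 0.11, from 11.37, 11.47 and 11.44 to 10.29, 10.18 and 10.51, and Cd274 (PD-L1) by 0.86 ± 0.10.

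Of 18 tested pro-apoptotic genes 4 were higher and 5 lower (3 and 4 of the 16 detected on all 6 arrays), which is near the shares over all genes of 20.8% and 22.2%. Bbc3, the gene of PUMA, a BH3-only activator of mitochondrial apoptosis, had 8.28, 8.04 and 8.66 in D3 and 5.67, 5.19 and 5.69 in D8. Bcl2l11, the gene of BIM, fell by 1.91 ± 0.12, from 10.73, 10.60 and 10.66 to 8.64, 8.63 and 8.99, and its other tested probes gave -0.76 and -1.95. Bmf, also a BH3-only gene, was detected on all D3 arrays and on no D8 array, and was at least 2.91-fold lower. Bik (0.97 ± 0.15), Fas (0.63 ± 0.11), Bak1 (0.60 ± 0.12) and Apaf1 (0.56 ± 0.10) rose, with Bik and Bak1 not called with the authors' values. Of 12 anti-apoptotic genes 2 were higher, near the share over all genes, and 7 lower, above it. Bcl2, which holds BIM and PUMA in check, fell by 1.27 ± 0.11, from 8.34, 8.57 and 8.30 to 7.10, 7.14 and 7.16, and its 5 other tested probes ranged from -1.14 to -0.15. Birc2 fell by 0.87 ± 0.10, Mcl1 by 0.78 ± 0.12 and Traf2 by 0.73 ± 0.11, and Gadd45b rose by 0.91 ± 0.16 (not called with the authors' values).

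Of 29 tested cytokine receptors and feedback genes 8 were higher and 7 lower (5 and 6 of the 24 detected on all 6 arrays), again near the shares over all genes. Socs3, the feedback inhibitor of IL-6 family signalling, rose by 2.58 ± 0.17, from 7.91, 7.27 and 8.24 to 10.48, 10.34 and 10.33, and Socs2, not detected in D3, was at least 4.24-fold higher. Lif rose by 1.63 ± 0.10. The brightest probe of Jak1 rose by 1.43 ± 0.10 while its other tested probes gave -0.67 (not called) and -0.32 (called), so no direction can be given for that gene. The receptor chains of transforming growth factor beta fell, Tgfbr1 by 1.62 ± 0.14 and Tgfbr2 by 0.76 ± 0.10 (other probes 0.06, not called, and -0.71), and so did Ifngr2 (-1.12 ± 0.10) and Socs5 (-1.08 ± 0.14). Of 23 genes of the T cell receptor and its proximal signalling 2 were higher and 5 lower, which is no more than the shares over all genes, and 1 and 2 without experiment 1 and 2 and 10 with the mean of a gene's probes. Rasgrp1, which couples the receptor to RAS, fell by 1.06 ± 0.12 and Cd6 by 0.82 ± 0.11. Of 19 genes of the PI3 kinase pathway 3 were higher and 6 lower, also near the shares over all genes. Sgk1, a kinase activated downstream of PI3 kinase, rose by 2.43 ± 0.10, from 9.15, 8.80 and 9.11 to 11.59, 11.26 and 11.51, in contrast to Pik3r3 (9.54, 9.52 and 9.27 in D3, 6.42, 6.27 and 6.75 in D8), Pik3ip1 and Pik3r1 (-0.68 ± 0.11).

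Type I interferon genes were mostly higher in D8. Of 25 type I interferon genes 16 were higher and 1 lower, with a median of 0.58, against 20.8%, 22.2% and 0.00 over all genes. Of the 20 detected on all 6 arrays 14 were higher. Beside Ifitm3 (6.30, 6.19 and 6.88 in D3, 9.80, 9.73 and 9.49 in D8), Oas2, an antiviral 2′-5′ oligoadenylate synthetase, rose by 2.38 ± 0.12, from 5.66, 5.62 and 6.74 to 7.88, 8.31 and 8.97, Oas3 by 1.75 ± 0.11 and Eif2ak2, the kinase PKR, by 1.73 ± 0.13. In Oas2 the D3 array of experiment 3 stood above the other two, and the differences within experiments were 2.22, 2.69 and 2.24. Ifit2 fell by 0.49 ± 0.13, but was not called without the replicate block, experiment 1 (-0.40) or experiment 3 (-0.39). With the authors' values 9 were higher and 0 lower. Of 18 interferon gamma genes 2 were higher and 6 lower (median -0.20), 1 and 6 of the 17 detected on all 6 arrays, and 0 and 5 with the authors' values. The share called in this list is about that over all genes (43.0%). The class I gene H2-K1 fell by 1.38 ± 0.13, from 11.52, 11.91 and 11.85 to 10.04, 10.28 and 10.83, the guanylate-binding protein genes Gbp2 and Gbp5 by 1.10 ± 0.12 and 1.03 ± 0.19, and the transcription factor Irf1 by 0.77 ± 0.10, while Gbp3 (0.51 ± 0.12) and Socs1 (0.52 ± 0.11) rose. Gbp5, Gbp3 and Socs1 were not called with the authors' values, and the other probes of H2-K1 gave -0.45 and -0.72. Many genes are known to respond to both interferons, and the lists share no member.

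The sorted cells carried 7 of the 8 T cell markers on the array in both divisions, and the other, Cd5, was detected on no array. Cd3e had levels of 13.20, 13.17 and 13.38 in D3 and 13.13, 12.99 and 13.10 in D8 (-0.18 ± 0.10, adjusted p 0.189), and Cd4 8.08, 8.25 and 8.07 against 8.17, 8.15 and 8.34 (0.09 ± 0.11, adjusted p 0.542; -0.013 with median centring). Cd3g, Cd3d and Cd2 fell by 0.37, 0.35 and 0.33, Icos rose, and Cd28 (-0.08 ± 0.10) was not called. Each of these 3 falls lost its call without experiment 1 (-0.34, -0.33 and -0.39) and without experiment 2 (-0.32, -0.36 and -0.27), and those of Cd3d and Cd2 also without experiment 3 (-0.37 and -0.33). The summed intensity of the 7 tested T cell markers was 46403 to 47559 in D3 and 38229 to 40506 in D8. Markers of other cells were mostly not detected. Of 13 B cell markers on the array 7 were tested and 5, Ms4a1, Pax5, Blk, H2-Aa and Cr2, were detected on no array. The remaining marker, Fcer2a, was detected on no D3 array and on 2 of 3 D8 arrays. Among those tested, Cd79b was detected on 3 of 3 arrays in both divisions and was not called. Cd22 was detected on no D3 array and at least 3.01-fold higher in D8, the class II chain H2-Ab1 rose by 1.30 ± 0.20 and the invariant chain Cd74 by 0.75 ± 0.11, whereas Cd72 (-2.15 ± 0.20) and H2-DMb2 (-0.68 ± 0.15) fell. With the authors' values these 5 calls became 2, without Cd22, H2-Ab1 and H2-DMb2, and Cd74 was not called without the replicate block. The summed intensity of the 7 was 507 to 717 in D3 and 464 to 562 in D8. Of 13 myeloid markers 3 were tested, of which Lyz1 (0.87 ± 0.19, not called with the authors' values, all 12 arrays in the fit or no detection filter) and Cebpb (0.49 ± 0.10) rose, with a sum of 397 to 506 in D3 and 592 to 818 in D8, and 8, Cd14, Itgam, Adgre1, S100a8 and S100a9 among them, were detected on no array. Of 6 NK markers only Klrd1 was tested and rose by 1.37 ± 0.12, and the other 5, Ncr1 and Klrb1c included, were detected on no array. Of 9 dendritic cell markers Cd86 was the 1 that fell, while Itgax, Flt3, Xcr1 and Clec9a were detected on no array. Of 7 plasma cell markers 4 were tested and 3, Jchain and Sdc1 among them, were detected on no array. Xbp1 rose and Derl3 was at least 1.72-fold lower. Irf4, detected on 3 of 3 arrays in both divisions, and Mzb1, on 1 D3 and 2 D8 arrays, were not called. Of the CD8 T cell markers, Cd8a was detected on no array and Cd8b1 on 3 of 3 arrays in both divisions. The brightest probe of Cd8b1 had high means, 11.67 in D3 and 11.30 in D8. That probe fell by 0.36 ± 0.11 where another called probe rose by 0.33, so that no direction can be given. The stromal marker Pecam1 fell by 0.35 ± 0.10 (not called without experiment 1, -0.30, or experiment 2, -0.36), and the erythroid marker Hba-a1 (-0.75 ± 0.33, adjusted p 0.107) was not called, except without experiment 3 (-1.17). The part of these markers in the other results was not tested.

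D4 and D6, the divisions in between, share no array with D3 and D8, so the genes called between D8 and D3 could be read in samples that had not chosen them. The 2 pairs share the 3 experiments and the normalization. Of the 1855 genes higher in D8 than D3, 1647 (88.8%) were also higher in D6 than D4, and of the 1984 lower ones 1796 (90.5%) were lower. Among genes over 2-fold the counts were 403 of 406 and 321 of 324, and among the 5080 genes not called 2576 (50.7%) were higher in D6. A limma fit of D6 against D4 called 563 of the 8919 genes (6.31%), 319 (3.58%) higher and 244 (2.74%) lower. Of these, 538 (95.6%) were called the same way between D8 and D3, 1 the opposite way and 24 were not called, and the 538 are 14.01% of the 3839 calls between D8 and D3. The gene called the opposite way was Lag3, an inhibitory receptor, which fell from D3 to D8 by 0.57 ± 0.13 (not called with the authors' values, no detection filter or, at -0.40, without experiment 1) and rose from D4 to D6 by 0.57 (adjusted p 0.0363). The count of 563 depends on the fit and was 302 without the replicate block, 202 without experiment 1, 306 without experiment 3, 887 with median centring and 0 with the authors' values, where 2127 genes had an unadjusted p under 0.05.

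**Figure D5:**
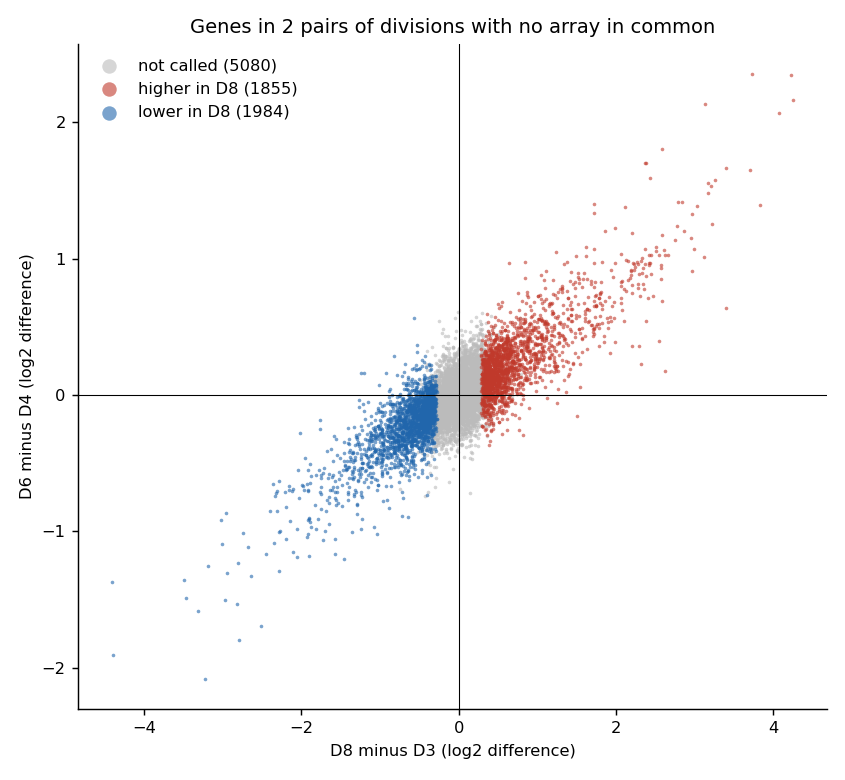
Log2 difference D6 minus D4 (y axis) against D8 minus D3 (x axis) for 8919 genes, 1 point each, coloured by the call between D8 and D3. Of the 1855 red points 1647 lie above 0 on the y axis and of the 1984 blue points 1796 lie below it, and the correlation across genes is 0.823.

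By list, the mitosis genes moved in this pair too, where 3.58% of all genes were called higher and 2.74% lower. Of the 30, 27 were called higher in D6 than D4, with a median of 0.93, among them Plk1 (1.03, adjusted p 0.00354) and Cdc25b (1.39, adjusted p 0.00222). The S phase list had 9 of 39 called higher (median 0.29), type I interferon 7 of 25 (median 0.39), early activation 5 of 24 lower (median -0.18), cholesterol synthesis 3 of 16 higher (median 0.31) and glycolysis 3 of 16 higher (median 0.13). The respiratory chain (median 0.06) and ribosome biogenesis (median -0.18) had 0 called in either direction. Bbc3 (-1.23), Bcl2l11 (-1.02), Bmf (-1.18), Socs3 (1.80), Sgk1 (1.59), Oas2 (1.70) and Klf2 (1.07) were called in the direction they had between D8 and D3, with an adjusted p of at most 0.00828. Ccnd2 (0.16, adjusted p 0.601), Ifng (-0.15, adjusted p 0.491) and Lgals3 (0.64, adjusted p 0.289) were not called between D6 and D4.

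The change was spread over the division steps, with the share of each step larger later on. For the 406 genes higher by over 2-fold, the median share of the total change was 17.7% from D3 to D4, 38.4% from D4 to D6 and 43.4% from D6 to D8. For the 324 lower genes it was 15.7%, 37.5% and 47.5%. The D3 to D4 step is 1 division and each of the other steps is 2. The 4 means followed the order of division in 352 of the 406 (86.7%) and 282 of the 324 (87.0%), against 37.1% of all genes. A choice of genes by their difference between the ends favours such an order, and these shares are a description.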

How the data were processed

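Total RNA of the sorted cells was amplified, biotin-labelled and hybridized to Illumina bead arrays, per the labels' protocols. The authors deposited linear probe intensity with a detection p-value, not normalized and exported from BeadStudio 2.0 per the submitters' processing notes. They also deposited a background-subtracted, normalized intensity table whose method is not given in the sources used here (array medians 2.74 to 2.76). The 12 arrays were background-corrected, quantile-normalized and log2-transformed here with neqc in limma 3.58.1 (R 4.3.3, offset 16). The negative controls were inferred from the detection p-values, whose step implies 936. A probe entered the limma fit when 3 or more of the 6 arrays detected it (p under 0.05), the fit having division and experiment as terms, Benjamini-Hochberg adjustment over 16406 probes and calls under 0.05. Of these, 2525 probes carried no single symbol. Summed list intensities add the normalized linear values of the tested members. Pairing rests on the experiment numbers in the labels: deviations from the group means correlated at 0.291 to 0.413 within experiments and at -0.253 to -0.027 between them.

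The members and gene lists were chosen with earlier results of these data known. Genes named are the 15 largest rises and falls, the 6 largest least folds each way, up to 4 called members of a list in each direction and a set named whatever their values, not all of which are reported here. Aurka, Cd28, Cdk1, Cenpf, Ect2, Fos, Fosb, Gins4, Hba-a1, Hspa1a, Jun, Junb, Lag3, Mcm2, Mcm3, Mcm4, Nusap1, Pttg1, Rpa2 and S100a11 were named after their values were seen. The code was tested on simulated data.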

Additional observations from a re-analysis of the deposited data

How the results depend on the processing

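The comparison was repeated under 13 alternatives. The count of genes called between D8 and D3, 3839, ranged from 2875 to 4189, that of probes, 6833, from 4779 to 7284, and that of list members, 370, from 296 to 401. Without the replicate block they were 3124, 5486 and 323. Leaving out each experiment gave 2875 to 3335 genes and 5113 to 5954 probes. Genes called between D6 and D4, 563, moved more: 302 without the replicate block, 887 with median centring (372 higher and 515 lower), 202 to 406 when an experiment was left out, and 0 by limma with the authors' values, where 2127 had an unadjusted p under 0.05. The cause was not tested. Of 206 genes followed, 162 kept call and direction under every alternative run. Directions turned in Cd4 with median centring (-0.013) and, without experiment 2, in Il7r (-0.078), Jun (-0.050) and Tbx21 (-0.16), none of them called. Leaving out each experiment gave -0.078 to 0.71 for Il7r, -0.050 to 0.22 for Jun and -0.16 to 0.27 for Tbx21. The slide could not be used as a block, because the file headers name no slide. With 3 arrays per group and 2 residual degrees of freedom, the test leans on the spread shared over all probes, and changes of probes near background are compressed by the offset.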
